A study of Mus musculus with 65 samples.

Results

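The peroxiredoxins of the mouse are encoded by 6 genes, Prdx1 to Prdx6, and all 6 were among the 11971 genes counted in single cells of the developing cortex. The genes were taken by name. They were selected on measured values of these same cells, since earlier results had shown Prdx1 to vary along neuronal differentiation, so their levels are given as a description and without a test. The cells came from C57BL/6J embryos at E13.5, per the labels. Cortical tissue without the ganglionic eminences was dissociated after brains had been pooled over embryos, and single cells that did not take up the dead-cell dye propidium iodide were sorted for full-length cDNA synthesis with the SMARTer kit. The 65 cells carry no genotype, treatment or animal that would part them, so they form 1 group and 1 sample, and cells are not replicates. They are described here by the marker genes they expressed: 20 cells had Eomes, a transcription factor of intermediate progenitors, at 10 CPM or more (CPM being reads of the gene per 1000000 reads of the cell), 16 had Neurod6, of cortical excitatory neurons, 11 had Dlx5, of ventrally derived interneurons, and 22 had Sox2, of apical progenitors. The 13 remaining cells had none of the 4.

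Peroxiredoxins are thiol peroxidases that reduce hydrogen peroxide and organic peroxides with a reactive cysteine, and most of them are returned to the reduced state by thioredoxin. Prdx1 and Prdx2 are cytosolic, Prdx3 is mitochondrial, Prdx4 lies in the endoplasmic reticulum, Prdx5 is found in mitochondria, peroxisomes and cytosol, and Prdx6 is a cytosolic form that is reduced by glutathione and also has phospholipase activity. In the chick spinal cord Prdx1 is known to promote motor neuron differentiation, and Prdx2 is known as an abundant protein of neurons and of red blood cells.

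The promoter windows of Prdx1 and Prdx2 are shown because these are the members with the highest levels and because they ran in opposite directions along differentiation. Each is the 250 bases before the gene's start, 5′ to 3′ on the gene's own strand, from RefSeq on build GRCm38.p6. That of Prdx1 is chr4:116685349-116685598 and that of Prdx2 is chr8:84969372-84969621, both on the plus strand. Capitals mark the only match to TGACNNNGC, the core of the antioxidant response element bound by the transcription factor encoded by Nfe2l2, searched on both strands.
Prdx1: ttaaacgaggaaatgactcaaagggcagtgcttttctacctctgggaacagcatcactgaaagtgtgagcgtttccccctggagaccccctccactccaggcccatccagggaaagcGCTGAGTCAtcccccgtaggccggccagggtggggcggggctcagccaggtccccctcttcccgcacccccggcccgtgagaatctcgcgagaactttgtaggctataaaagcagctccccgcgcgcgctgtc
Prdx2: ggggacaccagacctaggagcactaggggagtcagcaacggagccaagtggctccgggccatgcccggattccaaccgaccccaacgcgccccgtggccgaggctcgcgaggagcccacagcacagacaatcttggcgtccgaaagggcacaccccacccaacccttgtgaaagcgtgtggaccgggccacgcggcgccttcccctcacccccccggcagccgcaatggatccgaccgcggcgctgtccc
The match in Prdx1 is on the minus strand. The first of its capitals in the printed window, the last base of the match as read on the minus strand, lies at -133 from the gene's start. The windows of Prdx2, Prdx3, Prdx4 and Prdx5 held no match. Of all 32851 RefSeq promoter windows of this length, 10.2% held a match. The promoter of Prdx6 was not analysed here.

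The sets of cells overlapped. Of the Eomes cells, 10 were also Neurod6 cells and 3 were also Sox2 cells, 4 of the Dlx5 cells were also Sox2 cells, and no cell had Neurod6 with Sox2, Dlx5 with Eomes or Dlx5 with Neurod6. Around the limit of 10 CPM, the highest cell left out and the lowest cell taken in had 7.67 and 11.7 CPM for Eomes, 1.15 and 61.8 CPM for Neurod6, 0.529 and 22.6 CPM for Dlx5, and 1.21 and 10.9 CPM for Sox2. Pan-neuronal genes summed to a median of 9288 CPM in Eomes cells, 17634 in Neurod6 cells, 9677 in Dlx5 cells and 1645 in Sox2 cells. Apical progenitor genes, Sox2 included, summed to 1748, 1328, 2037 and 3993 CPM in the same order of cells. Other lists, which hold Eomes, Neurod6 and Dlx5, were summed in that order too. Medians were 2690, 2254, 1066 and 326 CPM for intermediate progenitor genes and 929.5, 2912, 8.41 and 44.55 CPM for excitatory neuron genes. Interneuron and ventral telencephalon genes had 4.34, 3.05, 2809 and 2.85 CPM. Eomes cells were thus a mixed set, with high sums of intermediate progenitor, excitatory neuron and pan-neuronal genes. Total reads ranged from 85338 to 32130629 per cell, and 3 cells had under 1000000. The cells' titles part them into 3 unexplained sets of 31, 13 and 21 cells, with median totals of 14032041, 8127759 and 22483962 reads. Marker RNA of red blood cells was present in many cells, with 7 of 12 erythroid genes measured and summed medians of 198 CPM in Eomes cells, 36.7 in Neurod6 cells, 122 in Dlx5 cells and 462 in Sox2 cells. It also differed by title set, with medians of 2.87, 609 and 736 CPM in sets 1 to 3. No endothelial marker was in the table, and microglial markers summed to at most 93.7 CPM in any cell.

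Prdx2 was found in every cell, while each of the other 5 was near 0 in some cells and well expressed in others. Prdx2 was at 10 CPM or more in all 65 cells, Prdx1 in 55, Prdx6 in 43, Prdx4 in 32, Prdx3 in 30 and Prdx5 in 17. A cell held a median of 3 members at that level among Eomes cells, 3 among Neurod6 cells, 3 among Dlx5 cells and 4 among Sox2 cells, and every Sox2 cell held at least 3. Cells between those states were few for most members: of the 32 cells with Prdx4 at 10 CPM or more, 28 had 100 CPM or more, and of the 17 with Prdx5, 15 did. Prdx3 had the most cells between, with 10 of 30 under 100 CPM. Both states are seen in the plot of levels by marker gene.

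**Figure D1:**
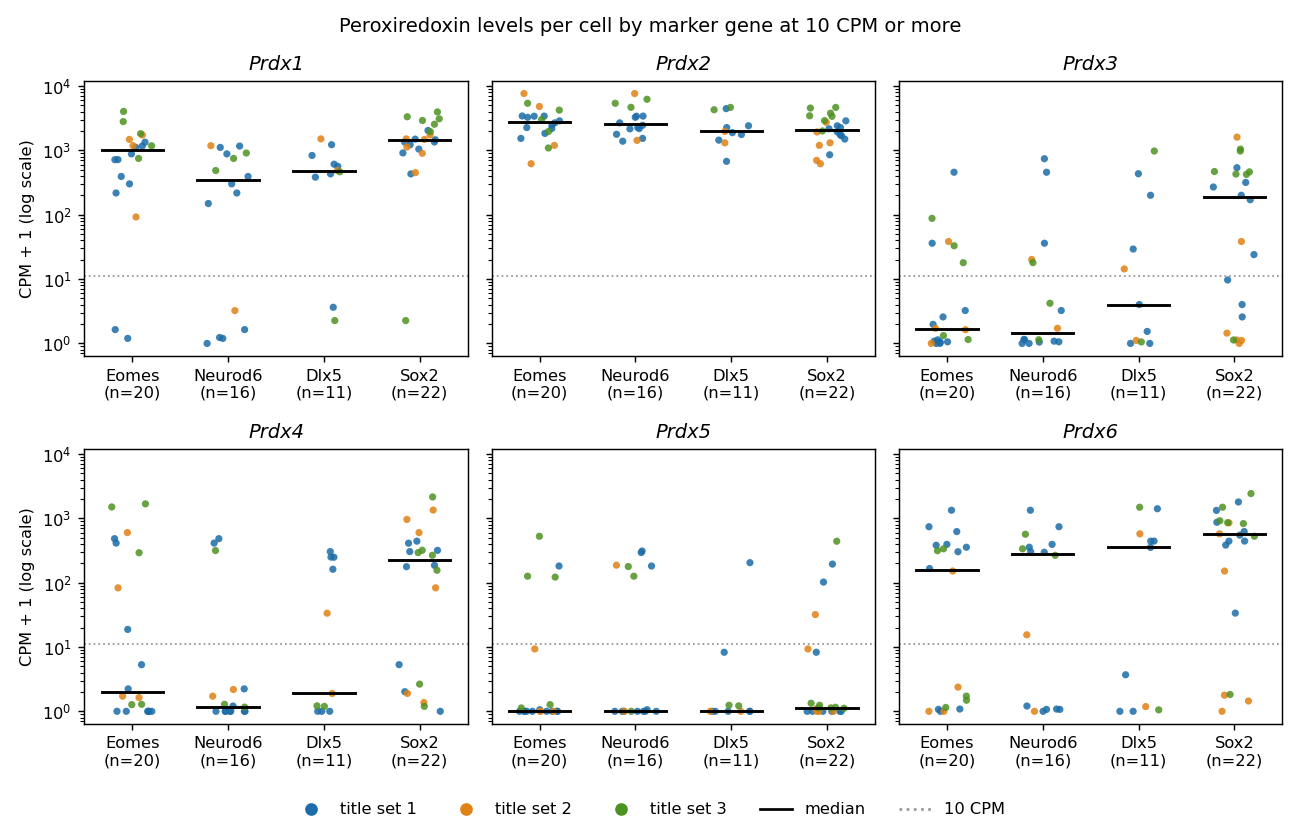
Level of each peroxiredoxin gene in single cells, as CPM + 1 on a log axis, in Eomes, Neurod6, Dlx5 and Sox2 cells; each point is a cell coloured by title set, and a cell with 2 markers is drawn in both sets. Black lines are medians and the dotted line is 10 CPM. Prdx2 is at 620 CPM or more in every cell, and Prdx3 and Prdx4 have medians well above 10 CPM in Sox2 cells only among these 4 sets.

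Per length of the longest principal transcript, Prdx2 had the highest mean level over the 65 cells, 1736 CPM per kb, followed by Prdx1 at 489, Prdx4 at 259.5, Prdx6 at 202, Prdx3 at 109 and Prdx5 at 62.8 CPM per kb. Per length of all annotated exons merged, Prdx3, at 109 CPM per kb, came before Prdx6, at 100.4, and the other places were the same. The make-up of the family differed between the sets of cells. Prdx2 made up a median of 77.1% of the summed level per kb in Eomes cells, 84.2% in Neurod6 cells, 74.7% in Dlx5 cells and 45.85% in Sox2 cells. Prdx1 made up 15.5% in Eomes cells, 6.5% in Neurod6 cells, 11.1% in Dlx5 cells and 23.45% in Sox2 cells. The summed level was 2738 ± 1101 CPM per kb in Eomes cells, 2530 ± 1268 in Neurod6 cells, 2173 ± 999 in Dlx5 cells and 3043 ± 1241 in Sox2 cells (SD over cells), so these means lay within 1 SD of each other. It also differed by title set, at 2074 ± 647, 2921 ± 1814 and 3979 ± 831 CPM per kb in sets 1 to 3. Neurod6 cells numbered 11, 2 and 3 in these sets and Sox2 cells 9, 6 and 7. The SDs therefore include title set, and whether the summed level was alike between marker sets was not tested.

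**Figure D2:**
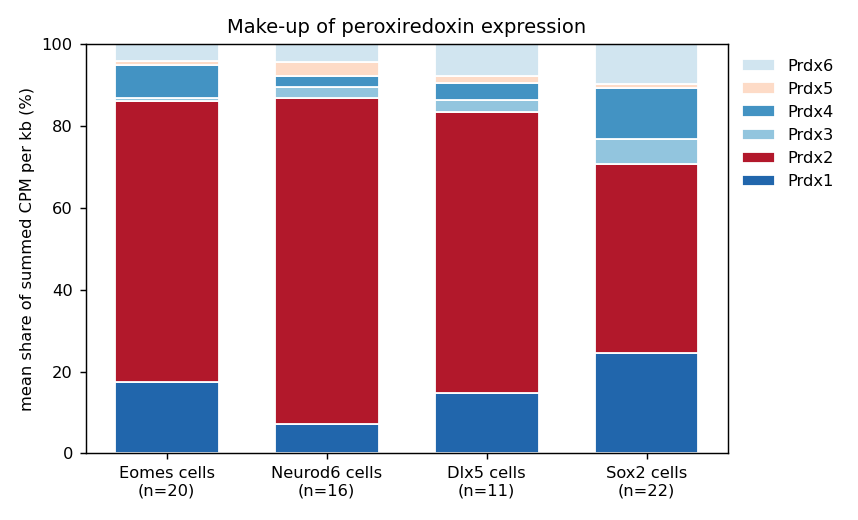
Mean share of each member in the summed peroxiredoxin level per kb of transcript (bars add up to 100%), in Eomes, Neurod6, Dlx5 and Sox2 cells. Prdx2 takes 79.8% of the Neurod6 bar and 46.2% of the Sox2 bar, and Prdx1, Prdx3, Prdx4 and Prdx6 each take a larger share of the Sox2 bar than of the Neurod6 bar.

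Among the cytosolic members, Prdx1 was lower in the neuron-marked cells than in Sox2 cells. Its lowest, median and highest levels were 0.197, 996 and 4029 CPM in Eomes cells, 0, 346.5 and 1183 CPM in Neurod6 cells, 1.26, 485 and 1508 CPM in Dlx5 cells, and 1.26, 1471 and 3958 CPM in Sox2 cells. The sets overlapped, but the highest Neurod6 cell lay below the median Sox2 cell. Prdx1 averaged 471.5 ± 458 CPM in Neurod6 cells and 1650 ± 994 CPM in Sox2 cells (SD over 16 and 22 cells), 3.50-fold lower in Neurod6 cells, a log2 ratio of -1.81. It was -1.71, -1.02 and -1.83 within title sets 1, 2 and 3. Neurod6 cells numbered 11, 2 and 3 in these sets, and Sox2 cells 9, 6 and 7. Every ratio between them within sets 2 and 3 therefore rests on 2 or 3 Neurod6 cells. Eomes cells were mixed in their level of Prdx1. The 10 Eomes cells with Neurod6 had a median of 570 CPM of Prdx1, and the 10 without it had 1409 CPM. This division runs together with title set and with Sox2: 8 of the 10 cells with Neurod6 were in title set 1 and none was a Sox2 cell, while of the 10 without it 3 were in set 1, 4 were in set 3 and 3 were also Sox2 cells. Within title set 1 the medians were 346.5 CPM in 8 cells with Neurod6 and 717.5 CPM in 3 cells without it, and without the Sox2 cells the median of the remaining 7 cells without Neurod6 was 1178 CPM. Levels also went with title set: the median was 717.5 CPM in set 1, 485 CPM in set 2 and 2298 CPM in set 3, the set with the most reads per cell, and Spearman's rho of Prdx1 with total reads was 0.44 over 65 cells. The part of depth in the differences was not tested.

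Prdx2, the other typical cytosolic form, did not share that order. Its lowest, median and highest levels were 620, 2775 and 7646 CPM in Eomes cells, 1388, 2565 and 7646 CPM in Neurod6 cells, 674, 1973 and 4652 CPM in Dlx5 cells, and 620, 2084 and 4652 CPM in Sox2 cells. The mean was 3242 ± 1844 CPM in Neurod6 cells and 2302 ± 1145 CPM in Sox2 cells, a log2 ratio of 0.49. This ratio was within 2-fold over all cells, and it was positive in each title set (0.31, 1.68 and 0.62). Title sets 2 and 3 held 2 and 3 Neurod6 cells, and the cell at 7646 CPM was in set 2. The cell with the most Prdx2, at 10972 CPM, was in title set 2 and had none of the 4 markers. As a ratio within each cell, Prdx1 over Prdx2 in CPM had a median of 0.269 in Eomes cells, 0.111 in Neurod6 cells, 0.203 in Dlx5 cells and 0.854 in Sox2 cells. Prdx2 overlaps the exons of Rnaseh2a, a gene on the opposite strand, by 154 bases in the GRCm38 annotation, and those of Junb, also on the opposite strand and not analysed here, by 173 bases, and reads cannot be assigned there because the library does not keep strand. Spearman's rho of Prdx2 with summed erythroid CPM was 0.31 over 65 cells and 0.30, 0.03 and 0.12 within title sets. Erythroid RNA was lower in Neurod6 cells than in Sox2 cells, the opposite order to Prdx2, and its part in the level of Prdx2 was not tested.

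Prdx6, reduced by glutathione rather than thioredoxin, had its highest median in Sox2 cells. Its lowest, median and highest levels were 0, 157.5 and 1332 CPM in Eomes cells, 0, 280 and 1332 CPM in Neurod6 cells, 0, 352 and 1484 CPM in Dlx5 cells, and 0, 559 and 2420 CPM in Sox2 cells. It reached 10 CPM in 11 of 20 Eomes cells (55%, exact binomial 95% interval 31.5 to 76.9%), 10 of 16 Neurod6 cells (62.5%, 35.4 to 84.8%), 6 of 11 Dlx5 cells (54.5%, 23.4 to 83.3%) and 18 of 22 Sox2 cells (81.8%, 59.7 to 94.8%). These intervals, like those given for the next members, cover counting error over the cells of 1 pooled sample only, and no difference between sets was tested from them. By mean level Prdx6 was 2.38-fold lower in Neurod6 cells, 287 ± 361.5 CPM against 684 ± 629 CPM in Sox2 cells.

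The members of the mitochondrion and the endoplasmic reticulum, Prdx3 and Prdx4, were under 10 CPM in most Eomes, Neurod6 and Dlx5 cells and above it in most Sox2 cells. Prdx3 had lowest, median and highest levels of 0, 0.677 and 456 CPM in Eomes cells, 0, 0.438 and 741 CPM in Neurod6 cells, 0, 3.02 and 976 CPM in Dlx5 cells, and 0, 185 and 1605 CPM in Sox2 cells. It was at 10 CPM or more in 6 of 20 Eomes cells (30%, 11.9 to 54.3%), 5 of 16 Neurod6 cells (31.2%, 11.02 to 58.66%), 5 of 11 Dlx5 cells (45.5%, 16.8 to 76.6%) and 14 of 22 Sox2 cells (63.6%, 40.7 to 82.8%). Where Prdx3 was found it was also lower in Eomes and Neurod6 cells than in Sox2 cells. Medians were 36.2 CPM in the 6 positive Eomes cells and 35.05 CPM in the 5 positive Neurod6 cells. They were 199.5 CPM in the 5 positive Dlx5 cells and 425 CPM in the 14 positive Sox2 cells. The sets share cells, and 3 of the 6 positive Eomes cells were also Neurod6 cells. The mean of Prdx3 was 79.7 ± 209 CPM in Neurod6 cells and 317 ± 422 CPM in Sox2 cells, 3.98-fold lower in Neurod6 cells. Log2 ratios were -0.60, -4.78 and -6.32 within title sets 1 to 3. Sets 2 and 3 held 2 and 3 Neurod6 cells, averaging 9.96 and 6.78 CPM. In Neurod6 cells a few cells carried the mean, with 2 of 16 at 100 CPM or more. In Sox2 cells 12 of 22 were at that level. Both SDs were above the means.

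Prdx4 had lowest, median and highest levels of 0, 0.975 and 1675 CPM in Eomes cells, 0, 0.186 and 481 CPM in Neurod6 cells, 0, 0.896 and 302.5 CPM in Dlx5 cells, and 0, 225 and 2142 CPM in Sox2 cells. It was at 10 CPM or more in 8 of 20 Eomes cells (40.0%, 19.1 to 63.95%), 3 of 16 Neurod6 cells (18.8%, 4.05 to 45.7%), 5 of 11 Dlx5 cells (45.5%, 16.8 to 76.6%) and 15 of 22 Sox2 cells (68.2%, 45.1 to 86.1%). The share was lowest in Neurod6 cells and highest in Sox2 cells. The mean was 75.6 ± 165 CPM in Neurod6 cells and 363 ± 519 CPM in Sox2 cells, 4.80-fold lower in Neurod6 cells. Log2 ratios were -1.33, -9.03 and -2.11 within title sets 1 to 3. The value in set 2 compares 2 Neurod6 cells, averaging 0.951 CPM, with 6 Sox2 cells averaging 496.5 CPM. Set 3 held 3 Neurod6 cells. In Eomes cells Prdx4 was found in 2 of 10 with Neurod6 and in 6 of 10 without it. Of those 6, 2 were also Sox2 cells and 3 were in title set 3. Within title set 1 it was found in 2 of 8 with Neurod6 and in 1 of 3 without it, so title set and Neurod6 cannot be told apart here. With every cell thinned to 1000000 reads and shallower cells left out (1 Eomes cell and 2 Sox2 cells), Prdx4 was found in 36.8% of Eomes cells, 18.8% of Neurod6 cells, 45.5% of Dlx5 cells and 70.0% of Sox2 cells.

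Prdx5, the form shared by several compartments, was the rarest. It had no read in 29 of the 65 cells and a median of 0 CPM in Eomes, Neurod6 and Dlx5 cells and of 0.123 CPM in Sox2 cells. It was at 10 CPM or more in 4 of 20 Eomes cells, 6 of 16 Neurod6 cells, 1 of 11 Dlx5 cells and 4 of 22 Sox2 cells, with highest levels of 524, 309, 203 and 439 CPM in the same order of cells. Every cell was also thinned to 1000000 reads in 1 random draw, with shallower cells left out. Prdx5 was then at 10 CPM or more in 5 of 19 Eomes cells (26.3%) and 6 of 16 Neurod6 cells (37.5%). It was at that level in 2 of 11 Dlx5 cells (18.2%) and 6 of 20 Sox2 cells (30%). Unthinned shares were 20%, 37.5%, 9.09% and 18.2% in the same order. Removing reads cannot add expression, and cells just under 10 CPM can pass it in a draw. A cell with Dlx5 and Sox2 had 7.28 CPM, and a cell with Eomes and Sox2 had 8.32 CPM. Each of them counts in 2 sets, so the higher shares were not read as a result of depth. The mean of 79.3 ± 114 CPM in Neurod6 cells was 2.23-fold higher than the 35.5 ± 101 CPM in Sox2 cells, a difference smaller than either SD. Prdx5 shares 360 bases of exon with Trmt112 on the opposite strand, and reads of the 2 genes cannot be told apart there.

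For each member, sets next to each other in the order of means differed by less than the larger of their SDs over cells. Between Neurod6 and Sox2 cells, which share no cell, the difference of means exceeded the larger SD for Prdx1 only among the 6 genes. The family was chosen because Prdx1 varied along neuronal differentiation in these same cells, so this is a description and no separate support.

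Many other genes differed between these cells by as much as the peroxiredoxins. A gene was counted as higher or lower when its mean CPM differed by more than 2-fold, over the genes with a mean of 10 CPM or more, 8361 to 8377 of them by comparison, and cells with both markers were left out of both sets. The 3 comparisons with Sox2 cells share those cells and are not independent. Of the 6 members, 2 were lower in Eomes cells than in Sox2 cells (17 and 19 cells), Prdx3 with a log2 ratio of -3.29 and Prdx6 with -1.57, and 0 were higher, where 29.3% of all genes were lower and 24.4% were higher. Prdx1 (-0.71), Prdx4 (-0.58), Prdx2 (0.41) and Prdx5 (0.46) were within 2-fold. In Neurod6 cells against Sox2 cells 4 of 6 were lower, Prdx4 (-2.26), Prdx3 (-1.99), Prdx1 (-1.81) and Prdx6 (-1.25), and 1 was higher, Prdx5 (1.16), where 32.3% of all genes were lower and 24.1% were higher. In Dlx5 cells against Sox2 cells (7 and 18 cells) the same 4 were lower, Prdx3 (-2.25), Prdx4 (-2.12), Prdx1 (-1.95) and Prdx6 (-1.42), and 0 were higher, where 42.1% of all genes were lower and 24.5% were higher. Of all genes, 17.4% had a lower ratio than Prdx4 and 28.3% a lower ratio than Prdx6 in the Neurod6 comparison, so ratios of this size were not rare. The differences of these counts from the shares of all genes were not tested. In Dlx5 cells against Neurod6 cells (11 and 16 cells) only Prdx5 passed 2-fold, lower at -2.05, where 30.2% of all genes were lower and 28.1% were higher. That value rests on 1 Dlx5 cell with Prdx5 and 6 Neurod6 cells with it. Some calls rested on 1 title set. Without title set 3, Prdx6 was within 2-fold in Eomes cells (-0.98) and in Dlx5 cells (-0.90) against Sox2 cells, while Prdx1 (-1.04) and Prdx4 (-2.18) passed 2-fold in Eomes cells. Without title set 2, Prdx5 was within 2-fold in Neurod6 cells against Sox2 cells (0.74). Single cells also moved some ratios by over 1.5 times. With the highest cell of each gene left out in each set, Prdx3 was at -4.75 in Eomes cells, -2.84 in Neurod6 cells and -5.13 in Dlx5 cells against Sox2 cells. Prdx6 was then at -3.27 and Prdx5 at -9.08 in Dlx5 cells against Sox2 cells, and Prdx5 was at -6.37 in Dlx5 cells against Neurod6 cells and at 1.98 in Neurod6 cells against Sox2 cells. At this setting more of all genes were lower too. Against Sox2 cells 36.2% were lower in Eomes cells, 40.7% in Neurod6 cells and 60.25% in Dlx5 cells. In Dlx5 cells against Neurod6 cells 39.4% were lower. The part of this general shift in the members' ratios was not tested. Prdx5 passed 2-fold higher in Eomes cells against Sox2 cells with TMM factors (1.21), with scran factors (1.20) and without title set 1 (1.36). With the 4 cells that had both Dlx5 and Sox2 kept in both sets, Prdx6 was at -0.68 in Dlx5 cells against Sox2 cells. With the Eomes cells that had Neurod6 left out, an alternative added after the data were seen, Prdx4 stood at 0.37 against Sox2 cells.

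**Figure D3:**
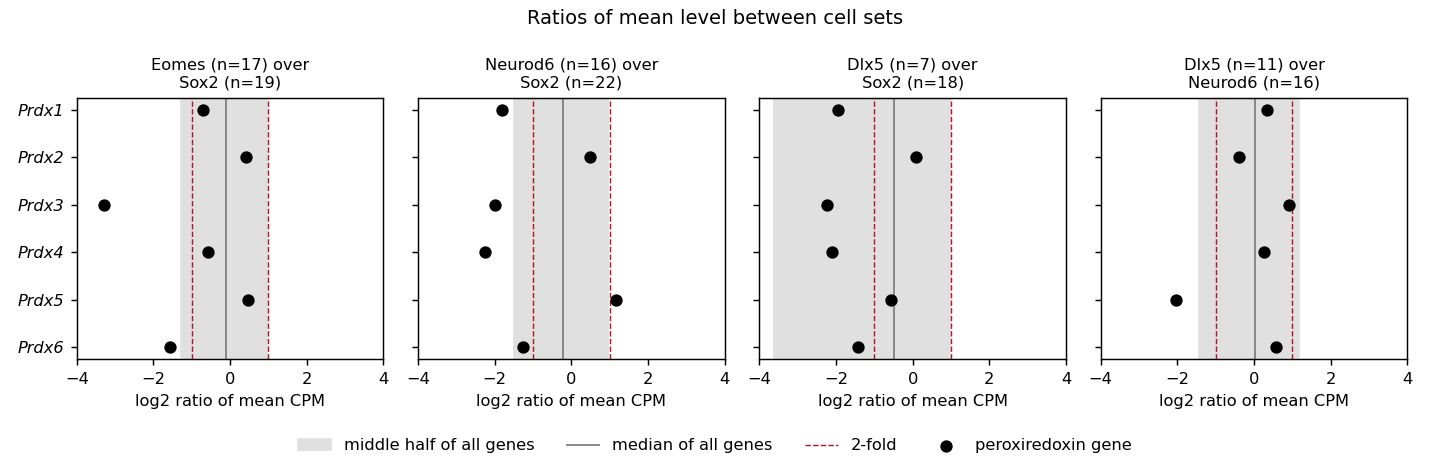
Log2 ratio of mean CPM for each peroxiredoxin gene in 4 comparisons (points); dashed lines mark 2-fold, the grey band holds the central 50% of all genes of mean CPM 10 or more, and the grey line is their median. Prdx1, Prdx3, Prdx4 and Prdx6 lie left of the lower 2-fold line in the Neurod6 and Dlx5 comparisons with Sox2 cells, and Prdx2 lies within 2-fold in all 4.

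Along a score of neuronal differentiation, the mean log2(CPM + 1) of 12 pan-neuronal genes minus that of 15 apical progenitor genes, Prdx1 and Prdx2 ran in opposite directions. The score had medians of 3.54 in Eomes cells, 6.20 in Neurod6 cells, 3.62 in Dlx5 cells and -2.02 in Sox2 cells. Spearman's rho with Prdx1 was -0.73 over 65 cells, -0.81, -0.63 and -0.64 within title sets 1 to 3, and -0.47 within the 22 Sox2 cells. With Prdx2 it was 0.34 over all cells and 0.36, 0.61 and 0.57 within title sets, but 0.07 within Sox2 cells. For all genes of mean CPM 10 or more, the 5th and 95th percentiles of rho were -0.38 and 0.31. Prdx4 (-0.45) and Prdx3 (-0.39) lay below that range, Prdx6 (-0.36) was just inside it and Prdx5 (0.03) was near 0. Prdx3 had a rho of 0.14 within title set 2, against -0.44 and -0.34 in sets 1 and 3. These values describe cells that share a library series and differ in depth, and they carry no p. The family was chosen because Prdx1 varied along differentiation in these same cells, so its rho here is no separate support.

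**Figure D4:**
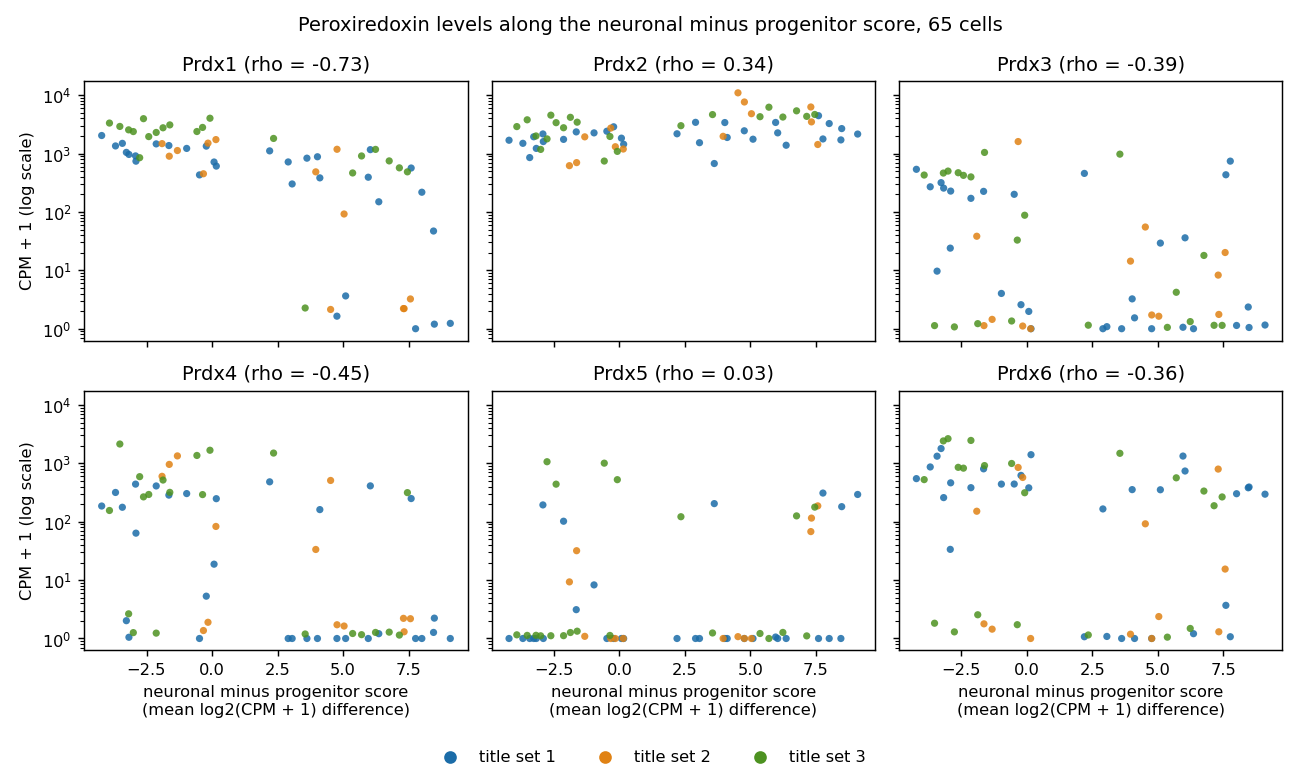
Level of each peroxiredoxin gene (CPM + 1, log axis) against the neuronal minus progenitor score (difference of mean log2(CPM + 1)) in 65 cells, coloured by title set, with Spearman's rho in each title. Prdx1 is lower at high scores (rho -0.73), Prdx2 is higher (rho 0.34), and Prdx5 shows no order (rho 0.03).

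Relations to cell cycle genes over all cells were not all seen within the Sox2 cells. Spearman's rho of Prdx1 with a score of 20 genes of the G1/S transition was 0.50 over 65 cells and -0.18 within Sox2 cells. With a G2/M score it was 0.43 over all cells and -0.0017 within Sox2 cells. Prdx2 had a rho of -0.42 with the G1/S score over all cells and -0.40 within Sox2 cells, while Prdx4 had 0.39 over all cells and -0.0028 within Sox2 cells. The positive relations of Prdx1 and Prdx4 to cycling genes over all cells were therefore not seen within the 22 progenitor-marked cells.

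Among pairs of members, Prdx1 with Prdx4 had the highest rho, 0.55 over 65 cells and 0.65, 0.30 and 0.53 within title sets. Of the 32 cells with Prdx4 at 10 CPM or more, 31 also had Prdx1. Prdx3 with Prdx6 had a rho of 0.47 (0.20, 0.48 and 0.80 within title sets) and 0.67 within Sox2 cells, and 25 of the 30 Prdx3 cells also had Prdx6. Prdx4 with Prdx6 had 0.01 over all cells and -0.55 within Sox2 cells. Prdx4 with Prdx5 had 0.31, Prdx1 with Prdx2 had -0.17, and the 10 remaining pairs lay between -0.12 and 0.29. Within title sets 1 to 3 Prdx1 with Prdx2 had -0.15, -0.65 and -0.50, and within Sox2 cells 0.16.

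The genes whose levels were most like each member's, by the highest rho over 65 cells with a positive rho in every title set, differed between members. For Prdx1 they were H2afz, a histone variant, at 0.72, the ribosomal genes Rpl36 and Rplp0, and Gm5148, all at 0.68 or more. Ribosomal genes have near-identical copies, so their counts are uncertain. For Prdx2 they were Hn1, Snap25, which encodes a synaptic vesicle fusion protein, Rusc1, Grcc10 and Map1lc3b, a gene of autophagy, between 0.45 and 0.48. For Prdx3 they were Ran, the GTPase of nuclear transport, Thoc7, Aif1l, and the mitochondrial genes Grpel1 and Mrpl2, between 0.49 and 0.54. For Prdx4 they were Ifitm2, the histone gene Hist1h1b, Pola2 of DNA polymerase alpha, Prdx1 and Exosc2, between 0.55 and 0.57. For Prdx6 Ran was again the first, at 0.61, followed by Gm5506, Lix1, Emg1 and Psat1, an enzyme of serine synthesis. For Prdx5 they were Atpif1, an inhibitor of the mitochondrial ATP synthase, Ost4, Nap1l2, Ufm1 and Mtg1, between 0.46 and 0.57.

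Other genes of peroxide and thiol metabolism also differed between Neurod6 and Sox2 cells. Of 52 genes listed, 44 were measured at a mean of 10 CPM or more, and of these 5 were higher and 19 lower past 2-fold, with a median log2 ratio of -0.65 beside -0.21 for all genes. Of all genes, 24.1% were higher and 32.3% lower. In Eomes cells against Sox2 cells 7 of the 44 were higher and 15 lower, where 24.4% and 29.3% of all genes were. In Dlx5 cells against Sox2 cells 9 were higher and 18 lower, where 24.5% and 42.1% of all genes were, and in Dlx5 cells against Neurod6 cells 18 were higher and 10 lower, where 28.1% and 30.2% were. These counts were not tested against those shares. The 4 with the largest ratios among the lower ones were near 0 in Neurod6 cells. Gpx8, a peroxidase of the endoplasmic reticulum like Prdx4, averaged 0.0386 CPM in Neurod6 cells and 182 CPM in Sox2 cells, and reached 10 CPM in 0 of 16 and 15 of 22 cells. Gsta4, a glutathione transferase for lipid peroxidation products, averaged 0.0329 and 95.2 CPM, Nfe2l2, the activator of antioxidant genes, 0.0213 and 27.8 CPM, and Gpx7 0.00254 and 23.7 CPM, in Neurod6 and Sox2 cells in that order. Nfe2l2 and Gpx7 were at 10 CPM or more in only 3 and 2 Sox2 cells, so few cells carried those means.

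Among the 5 genes of the list that were higher in Neurod6 cells, Idh1 and G6pdx are sources of NADPH, which feeds the thioredoxin system. Other NADPH enzymes of the list, Pgd, Me1, Idh2 and Nnt, were mostly not among those 5. A pattern of NADPH supply was not tested. Idh1 averaged 855 CPM in Neurod6 cells and 156 CPM in Sox2 cells (log2 ratio 2.46), and G6pdx, the first enzyme of the pentose phosphate pathway, 153 and 31.1 CPM (2.30). Sesn1, a stress-induced sestrin, averaged 61.8 and 16.8 CPM (1.88), and Sod2, the superoxide dismutase that makes hydrogen peroxide in mitochondria, 162.9 and 65.2 CPM (1.32), in the same order. The genes that recycle the peroxiredoxins, chosen after their values were seen, were lower or within 2-fold: Txnrd1, the cytosolic thioredoxin reductase, averaged 43.1 CPM in Neurod6 cells and 171 CPM in Sox2 cells (-1.99), and Txn1, its thioredoxin, 305 and 499 CPM (-0.71). Srxn1, which reduces over-oxidized peroxiredoxins, Sesn2 and Hmox1 were not analysed here.

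Genes of the compartments of Prdx3 and Prdx4 were mixed between these sets. Of 13 folding genes of the endoplasmic reticulum, 1 was higher in Neurod6 cells (Calr, log2 ratio 1.01) and 2 were lower (Txndc5 and Qsox2), with a median log2 ratio of 0.13. Pdia6 and P4hb, disulphide isomerases that work with Prdx4, had log2 ratios of 0.40 and -0.94. Of 10 mitochondrial genes, 1 was higher (Sod2) and 3 were lower (Cs, Hspe1 and Txnrd2), with a median log2 ratio of -0.47. Beside these, 24.1% of all genes were higher and 32.3% lower, with a median of -0.21, so that 3 of 10 lower is close to the share of all genes. Txn2, the mitochondrial thioredoxin that serves Prdx3, had -0.07. These genes, named because the counts are small, were chosen after their values were seen.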

How the data were processed

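Single-cell RNA-seq libraries of 65 cells were analysed. The deposited file holds raw counts, whole-number reads per gene and cell, made by the authors. Per the submitters' processing notes, the tools were TopHat2 and HTSeq and the build was mm9, with no versions or roles. The gene annotation behind the counts is not stated in the labels or headers used. Every gene in the file had reads in at least 5 cells. The kit has no molecular identifiers, so reads are not independent molecules and the intervals cover counting error only.

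CPM were computed here from the counts and the total of each cell with Python 3.11.15, pandas 2.3.3, numpy 2.4.6 and scipy 1.17.1. Cells were grouped by 1 marker gene at 10 CPM or more. Because pooled embryos give 1 sample, no test, p-value or standard error was made from cells. Ratios of mean CPM were called past 2-fold over genes of mean CPM 10 or more, and a gene at 0 in 1 set counted as past it. Shares have Clopper-Pearson 95% intervals. Alternatives included scaling factors from edgeR 4.0.16 (TMM) and scran 1.30.0 in R 4.3.3, other marker limits, pseudocounts, medians, sums, and title sets left out. The calculation of ratios was tested on simulated data.

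The 6 members, the gene lists and the comparisons were chosen with earlier results of these data known. Genes other than members were named as the 5 with the highest rho to each member, or as the up to 4 genes per direction of the redox list with the largest ratio in Neurod6 over Sox2 cells, except where the text says otherwise; 1 gene that the rule names is not reported here. Transcript lengths and exon overlaps came from the GRCm38 annotation, not from mm9, and no coordinate was converted. No 2 cells held identical values.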

Additional observations from a re-analysis of the deposited data

How the results depend on the processing

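No paired analysis was possible because the cells carry no replicate numbers and form 1 group. In Neurod6 cells against Sox2 cells, Prdx1, Prdx3 and Prdx4 stayed lower past 2-fold under all 16 alternatives, with log2 ratios from -3.65 to -1.53, from -8.72 to -1.13 and from -10.24 to -1.86, and Prdx6 ranged from -2.46 to -0.997. Among those 16, markers at 2 CPM and cells with both markers kept took the same 16 and 22 cells as the main setting. They repeated its values and add no check in this comparison. The count there was 3 by median CPM, where Prdx6 was within 2-fold and Prdx5 gave no value because its medians were under 1 CPM. At that setting 34.35% of all genes with a value were lower and 33.5% higher. By mean log2(CPM + 1) and mean log2(CPM + 10) the count in Eomes against Sox2 cells was 4, with Prdx1 and Prdx4 added. Of all genes, 21.9% were lower and 13.8% higher by the first measure, and 8.76% and 5.73% by the second. The count was 3 with TMM factors, with scran factors and without title set 1, with Prdx5 added as higher. Lower shares of all genes were then 28.2%, 27.9% and 41.6%, and higher shares 26.4%, 27.2% and 27.1%. By median CPM it was 3 with Prdx4 added, where 37.6% of all genes with a value were lower. Without title set 3 it was 3, Prdx1, Prdx3 and Prdx4, where 32.5% were lower. In Dlx5 cells against Neurod6 cells the count was 2 with markers at 50 CPM, with summed counts and with TMM factors. It was also 2 without title set 2 and with title sets weighted equally. At these settings 29.8% to 33.5% of all genes were lower and 26.5% to 30.9% higher. The count was 4 by mean log2(CPM + 1), where 18.9% of all genes were lower and 16.7% higher. It was also 4 without title set 1 (4 and 5 cells), where 40.7% were lower and 33.5% higher. Without title set 1, Prdx4 in that comparison was lower in Dlx5 cells (-2.91) where all cells gave 0.25. In Dlx5 cells against Sox2 cells the count rose from 4 to 5, with Prdx5 added as lower, at several settings. Of all genes, 37.7% were lower with markers at 50 CPM, 41.1% with summed counts and 46.6% with title sets weighted equally. With the highest cell left out 60.25% were lower, and without title set 1 (2 and 11 cells) 59.5%. The count was 3, without Prdx6, with both-marker cells kept (31.7% lower) and without title set 3 (43.7%). Of the correlations of size 0.3 or more, 2 changed sign: Prdx3 with the neuronal score was 0.14 within title set 2, and Prdx4 with Prdx5, 0.31 over all cells, was -0.0090 within title set 1. Weaker ones changed sign too: within title set 2, Prdx1 had -0.57 with Prdx3 and -0.27 with Prdx6 (0.28 and 0.29 over all cells). Prdx1 with Prdx5 was 0.12 over all cells but negative within every title set (-0.12, -0.49 and -0.08). Prdx3 with Prdx4 (0.15) had -0.16 and -0.21 within sets 2 and 3. The cause was not tested. Of the other ratios, 338 kept their direction and side of 2-fold, counting alternatives that took the same cells as the main setting. Another 27 passed 2-fold in the same direction, 6 no longer did, and 13 changed sign while staying within 2-fold. Prdx5 in Eomes cells against Sox2 cells was 1 of these, at 0.46 in all cells and -0.88 without title set 3. With 1 sample, the number of cells limits every value, and 3 cells have under 1000000 reads.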

Other observations

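The highest levels of Prdx5 were outside the 4 sets of marked cells. The pair of cells with the most Prdx5 had 1065 and 1006 CPM, both in title set 3, against at most 524 CPM in any Eomes, Neurod6, Dlx5 or Sox2 cell. The same pair had the highest sums of 6 mural and meningeal markers, collagens among them, at 19800 and 11962 CPM, while no Eomes, Neurod6, Dlx5 or Sox2 cell exceeded 276 CPM. Their pan-neuronal genes summed to 5.36 and 41.7 CPM. They were singled out after their values were seen, and with 2 cells the relation of Prdx5 to that cell type was not tested.

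The 13 cells with none of the 4 markers held Prdx1 at a median of 848 CPM and Prdx6 at a median of 380 CPM. Prdx6 was highest of all cells there, at 2645 CPM.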
